A study of Mus musculus with 16 samples.

Results

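Spleen CD4+ dendritic cells (CD4+ DC) were compared with spleen CD4-CD8- dendritic cells (CD4-CD8- DC) on Agilent microRNA (miRNA) arrays read in 1 colour, with the dye Cy3. The arrays were chosen by their titles alone: 2 of CD4+ DC and 2 of CD4-CD8- DC, which makes 4 of the 16 arrays of the study. The CD4+ DC had been sorted as CD11c+ CD3- CD4+ CD8- B220- cells, and the CD4-CD8- DC as CD11c+ CD3- CD4- CD8- cells, for which the labels list no B220 gate. Both came from female C57Bl/6 mice aged 6 weeks with no treatment named, were enriched with CD11c beads, were sorted without culture, and each replicate was a pool of 8 mice. The other 12 arrays held spleen CD8+ DC, plasmacytoid DC (PDC), Gr1+ monocytes and the bone marrow progenitors MP, MDP and CDP, also 2 arrays each, and they entered the fit to estimate the spread between replicates. The first replicates had all been hybridised to array design 1, and the second replicates to design 2. Each replicate is 1 pool, so p-values measure the spread between pools and arrays. The arrays carry no mRNA probes, so CD4, CD8 and CD11c themselves were not measured here.

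Conventional dendritic cells take up antigen and present it to T cells. In the mouse spleen those without CD8 lie mainly in the bridging channels and marginal zone, are known for presenting antigen to CD4 T cells, and are divided by surface CD4. A miRNA is a short RNA that guides the silencing complex to mRNAs with a site complementary to its seed, and miRNAs that share a seed are therefore taken to share many targets. Related miRNAs are often cut from 1 primary transcript, and such a cluster is transcribed together.

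The mature sequences of the miRNAs on which the comparison turns are shown with the seed (bases 2 to 8) in capitals, because several differ from one another by very few bases. They are RefSeq entries of build GRCm38.p6, written 5′ to 3′.
miR-221: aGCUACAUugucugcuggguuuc
miR-222: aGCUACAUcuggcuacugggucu
miR-181a: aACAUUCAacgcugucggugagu
miR-181b: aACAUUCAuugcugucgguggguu
miR-181c: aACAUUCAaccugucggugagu
miR-181d: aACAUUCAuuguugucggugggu
miR-23a: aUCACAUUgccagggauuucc
miR-27a: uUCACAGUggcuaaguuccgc
miR-27b: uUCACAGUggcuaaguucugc
miR-24: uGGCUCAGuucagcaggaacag
miR-92a: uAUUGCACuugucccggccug
miR-138: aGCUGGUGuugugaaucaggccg
miR-155: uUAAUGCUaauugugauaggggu

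The 4 miR-181 members share the seed ACAUUCA, miR-221 and miR-222 share GCUACAU, and miR-27a and miR-27b share UCACAGU. Over the whole mature sequence, miR-181a and miR-181c differ by an edit distance of 1 base, as do miR-27a and miR-27b. The distance was 2 bases between miR-181b and miR-181d, 4 between miR-181a and miR-181b, and 5 between miR-221 and miR-222. Hybridisation to near-identical copies can be shared between their probes, so values of single members within a family are uncertain as to which copy they measure. In build GRCm38.p6, miR-221 and miR-222 lie on the minus strand of the X chromosome within chrX:19146307-19146923. On chromosome 8, the mature sequences of miR-181c and miR-181d (minus strand, chr8:84178759-84178945) and of miR-23a, miR-27a and miR-24 (plus strand, chr8:84208563-84208896) lie 29617 bases apart. A second copy of miR-24 lies beside miR-27b at chr13:63300760-63301272. Both miR-181a and miR-181b have copies on chromosomes 1 and 2, miR-92a on chromosomes 14 and X, and miR-138 on chromosomes 8 and 9.

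Levels are given as log2 relative signal, the log2 of a miRNA's processed signal after division by the 75th percentile of the 88 miRNAs that were detected on all 16 arrays. Of the 604 miRNAs on both designs, 131 and 163 were detected on the CD4+ DC arrays and 124 and 147 on the CD4-CD8- DC arrays. Detection on both arrays of any of the 8 populations left 175 miRNAs for testing, and 119 of them were detected on all 4 arrays of the 2 populations. No spot was saturated. The scaling factor was 769.9 and 659.0 signal units for CD4+ DC and 550.7 and 553.5 for CD4-CD8- DC, so the CD4+ DC arrays were brighter at that percentile. The number of arrays limits the precision: the median standard error (SE) of a difference was 0.186 on the log2 scale, and the median absolute difference between the populations was 0.178.

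Of the 175 miRNAs tested, 8 (4.57%) passed the threshold of a limma adjusted p under 0.05. Only miR-138 (0.571%) was higher in CD4+ DC, and 7 (4%) were lower: miR-221, miR-92a, miR-23a, miR-23b, and miR-181a, miR-181b and miR-181c. The 7 lower miRNAs were detected on all 4 arrays and differed by 1.46- to 1.85-fold between CD4-CD8- DC and CD4+ DC. For each of the 8 miRNAs the CD4+ DC and CD4-CD8- DC arrays did not overlap, and all 16 probes of these miRNAs differed in the called direction on design 1 and again on design 2. The 8 were picked by p from these same arrays, so both facts follow largely from that choice and are not separate support. Over all 175 miRNAs, 91 had the same sign on both designs. How many of the 175 had no overlap between the populations was not counted, so non-overlap here and below is only a description. Before adjustment, 33 miRNAs had a p under 0.05. The calls were sensitive to scaling: all 8 differences kept their sign when arrays were scaled over all miRNAs, quantile normalized or left unscaled, but 0, 1 and 3 miRNAs were then called. Unscaled, the median difference of the 119 miRNAs was 0.34, and relative to that median the 7 lower miRNAs lay between -0.86 and -0.52. Single pools mattered as much, with 2, 1, 11 and 0 miRNAs called when CD4+ DC replicate 1, CD4+ DC replicate 2, CD4-CD8- DC replicate 1 or CD4-CD8- DC replicate 2 was left out.

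**Figure D1:**
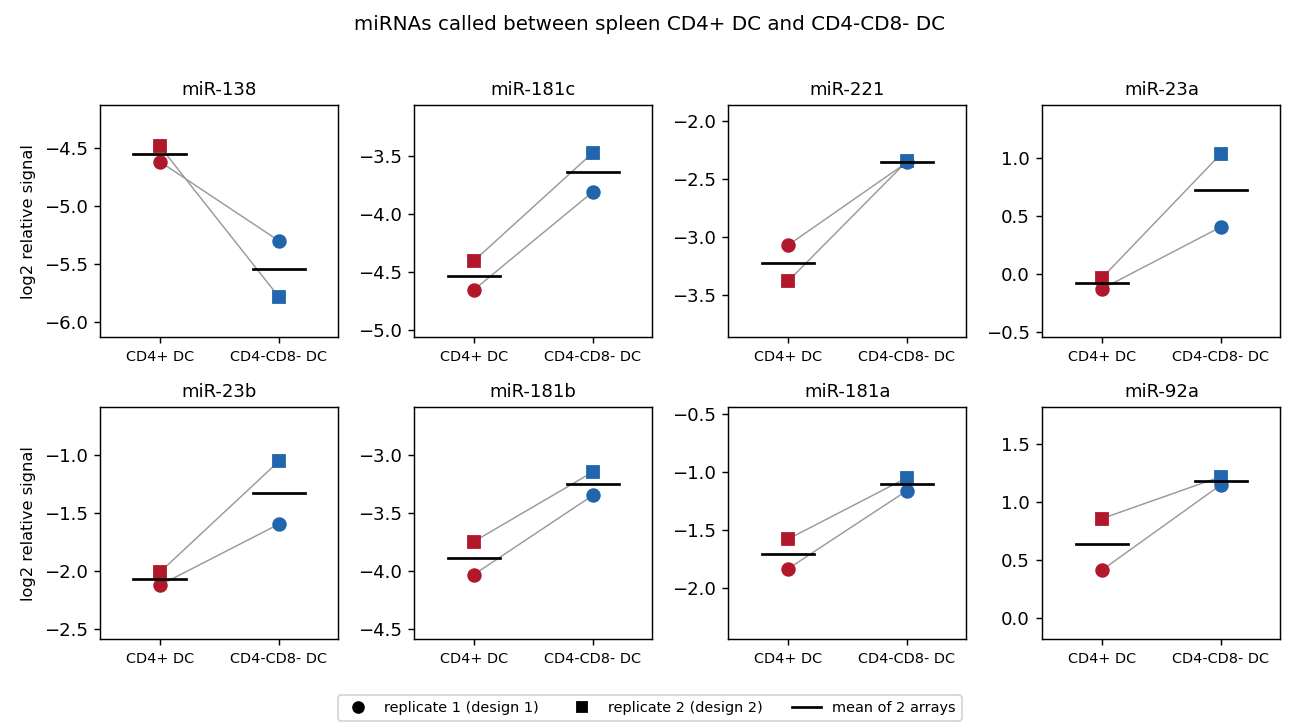
Log2 relative signal of the 8 called miRNAs on the 4 arrays, with CD4+ DC on the left of each panel and CD4-CD8- DC on the right. Circles are replicate 1 (design 1), squares are replicate 2 (design 2), grey lines join arrays of 1 design and black bars are means of 2 arrays. Every panel spans 2 log2 units, and the populations do not overlap in any panel.

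The only higher miRNA, miR-138, is known from rat neurons as a limiter of dendritic spine size. It was detected on both CD4+ DC arrays, at -4.61 and -4.48, and was not above background on either CD4-CD8- DC array, where it lay at the floor of -5.30 and -5.78. Before scaling, the processed signals were 31.4 and 29.5 in CD4+ DC and 9.30 and 2.41 in CD4-CD8- DC. CD4+ DC were thus at least 1.48-fold higher (limma difference 0.99 ± 0.151 SE, adjusted p = 0.0228), and the difference was 0.02 when the background was corrected with normexp. The highest level of the 8 populations was that of CD8+ DC, with a mean of -2.21, and the other 5 populations were at the floor. The list of CD8+ DC miRNAs, taken from earlier results of these data, has 2 further members, and neither was called: miR-34a differed by 0.00 ± 0.282, and miR-365 by -0.16 ± 0.187. Summed over all 3 members, the relative signal was 1.14 and 1.14 in CD4+ DC, 1.33 and 0.936 in CD4-CD8- DC, and 0.701 and 0.741 in CD8+ DC. The sum was thus lowest in CD8+ DC among the 3 spleen DC populations, whereas miR-138 alone was highest there. Bright members dominate such a sum, so it does not show whether the list marks CD8+ DC. All 3 members were detected on both CD8+ DC arrays, which follows partly from how the list was chosen. On the CD4+ DC arrays 2 and 2 were detected, and on the CD4-CD8- DC arrays 1 and 2. The part of any CD8+ DC in the CD4+ sort was not tested.

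The miRNAs miR-221 and miR-222 are known to repress the receptor Kit and the cell cycle inhibitor p27. The level of miR-221 was -3.07 and -3.39 in CD4+ DC, against -2.36 and -2.35 in CD4-CD8- DC. Both CD4+ DC arrays were therefore below both CD4-CD8- DC arrays, by -0.88 ± 0.157 (limma adjusted p = 0.0315). The partner miR-222 was at -4.23 and -4.13 in CD4+ DC and at -3.82 and -3.65 in CD4-CD8- DC, and its difference of -0.44 ± 0.139 was not called (adjusted p = 0.110 by limma). The populations did not overlap for miR-222 either, and the difference was lower in CD4+ DC on each design for both miRNAs. Among the 8 populations, CD4+ DC had the lowest mean for both. For miR-221 the means were -3.23 in CD4+ DC, -2.35 in CD4-CD8- DC and -1.56 in CD8+ DC, and lay between -0.43 and -0.40 in the 3 progenitors. The order of CD4+ DC and CD4-CD8- DC at the low end rests on the called difference, whereas PDC (-1.72), Gr1+ monocytes (-1.71) and CD8+ DC were close to each other.

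Of the clusters of miR-23, miR-27 and miR-24, miR-23a and miR-23b were lower in CD4+ DC and the other 3 tested members were not called. In the mouse, miR-23a, miR-27a and miR-24 are known to favour myeloid over B lymphoid development of progenitors. All 5 tested members had a difference below 0 on both designs, as did 48 of all 175 tested. The 2 calls make 40% of the 5, against 4.57% of all tested. No RefSeq sequence was found for miR-23b, so its distance from miR-23a was not measured and the 2 calls may not be separate. The list's median difference was -0.65, beside a median of 0.00 over all 175 miRNAs and -0.03 over the 119 detected on all 4 arrays. All 5 also stayed below 0 under the other 2 scalings and with unscaled signals.

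The level of miR-23a was -0.13 and -0.04 in CD4+ DC and 0.40 and 1.03 in CD4-CD8- DC. CD4+ DC were lower by -0.80 ± 0.167 (limma adjusted p = 0.0315), with a wider gap on design 2 (-1.07) than on design 1 (-0.53). For miR-23b the levels were -2.12 and -2.01 in CD4+ DC and -1.59 and -1.05 in CD4-CD8- DC. This gave a difference of -0.74 ± 0.148 (limma adjusted p = 0.0315), also larger on design 2. The third member, miR-24, was at -0.94 and -0.78 in CD4+ DC and at -0.52 and 0.11 in CD4-CD8- DC, a difference of -0.65 ± 0.161 that missed the threshold (limma adjusted p = 0.0555). Neither miR-27a (-0.59 ± 0.255) nor miR-27b (-0.48 ± 0.168) was called. All 5 members thus showed the smaller gap on design 1, where it was -0.13 for miR-27a and -0.14 for miR-27b, against -1.04 and -0.81 on design 2. CD4-CD8- DC replicate 2 had the highest level of the 4 arrays for all 5. With that array left out, miR-23a differed by -0.52, miR-23b by -0.53 and miR-24 by -0.40, and none of them was called. With CD4-CD8- DC replicate 1 left out instead, miR-24 (-0.91) and miR-27a (-1.04) were called lower as well.

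The miR-181 family is known for raising the sensitivity of the T cell antigen receptor and for promoting B lineage development. Of its 4 members, 3 were called lower in CD4+ DC, against 7 (4%) of all 175 tested. The level of miR-181a was -1.84 and -1.58 in CD4+ DC and -1.16 and -1.05 in CD4-CD8- DC, a difference of -0.60 ± 0.128 (limma adjusted p = 0.0315). For miR-181b it was -4.03 and -3.75 in CD4+ DC and -3.35 and -3.14 in CD4-CD8- DC, a difference of -0.64 ± 0.148 (limma adjusted p = 0.0457). On design 1 and design 2 the gap was -0.68 and -0.53 for miR-181a, and -0.68 and -0.60 for miR-181b. For miR-181c, the copy that differs from miR-181a by 1 base, the levels were -4.66 and -4.41 in CD4+ DC and -3.81 and -3.47 in CD4-CD8- DC. Its difference of -0.89 ± 0.186 was also called (limma adjusted p = 0.0315). The fourth member, miR-181d, was at the floor of -5.30 and at -5.77 in CD4+ DC, where it was detected on 1 of 2 arrays, and at -5.08 and -4.30 in CD4-CD8- DC, where it was detected on both. It was not called (-0.85 ± 0.288, limma adjusted p = 0.133), but was with CD4-CD8- DC replicate 1 left out (-1.28).

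**Figure D2:**
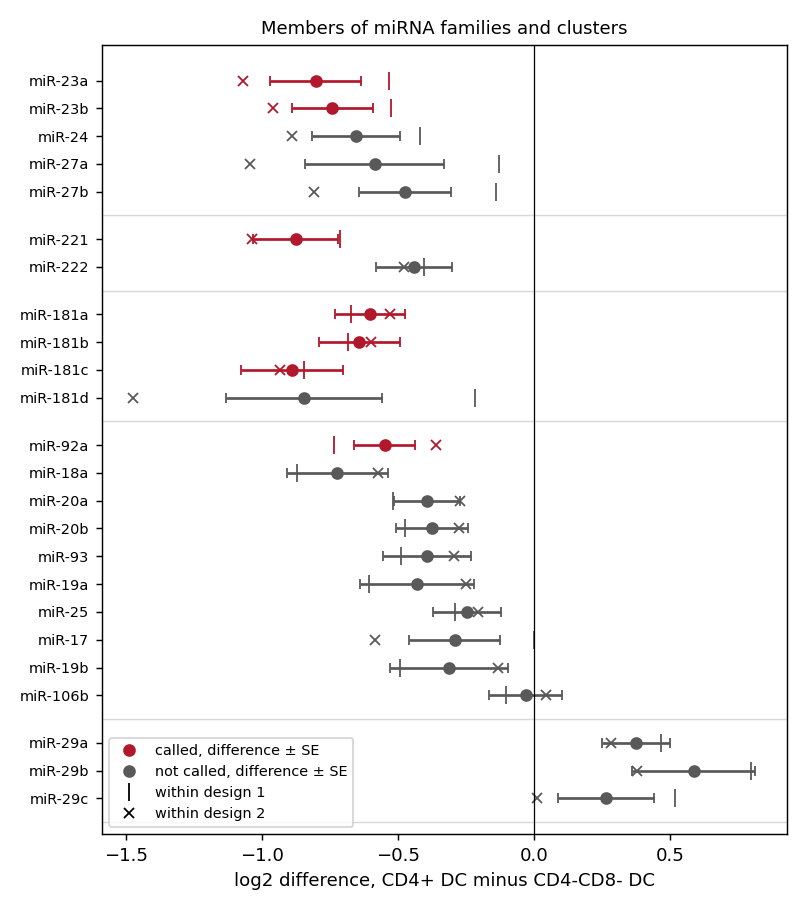
Log2 difference of CD4+ DC minus CD4-CD8- DC for the members of 5 miRNA families and clusters, with dots and bars for the fitted difference ± SE, ticks for design 1 and crosses for design 2. Red marks the called miRNAs. The fitted differences lie below 0 for the members of the first 4 groups (with unscaled signals, all but miR-19b, miR-25 and miR-106b). They lie above 0 for the 3 members of the miR-29 family, of which none was called.

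Because the labels list a B220 gate for CD4+ DC but none for CD4-CD8- DC, the lists of lymphocyte and PDC miRNAs were examined in full. The 7 lymphocyte miRNAs are the miR-181 family, miR-150, miR-342-3p and miR-342-5p. Of these, 3 were called lower and 0 higher (42.9%), against 4.57% called of all 175 tested. All 3 came from the miR-181 family, whose near-identical copies can share hybridisation, so they may not be separate calls. The list's median difference was -0.64, beside 0.00 over all 175. It was -0.675 on design 1 and -0.601 on design 2. Of the 7, 5 were lower in CD4+ DC on both designs, as were 48 of all 175. On design 1 all but 1 of the 7 were detected in CD4+ DC and all 7 in CD4-CD8- DC, and on design 2 all 7 were detected in both. The summed relative signal of the list was 2.47 and 3.17 in CD4+ DC and 2.40 and 3.95 in CD4-CD8- DC. The sums thus overlapped, with CD4+ DC the higher on design 1, but the brightest members weigh most in a sum. The sum was 3.45 and 4.11 in PDC, and 3.67 and 4.25 in CD8+ DC, which had been sorted as B220- cells. The list's largest difference was that of miR-150, which is abundant in mature lymphocytes and represses Myb. Its level was -2.49 and -1.43 in CD4+ DC and -1.33 and -0.12 in CD4-CD8- DC. The populations did not overlap, and they were apart by -1.16 on design 1 and -1.31 on design 2, but the difference of -1.23 ± 0.559 was not called (limma adjusted p = 0.290). It was -0.75 without CD4+ DC replicate 1 and -0.67 without CD4-CD8- DC replicate 2, and -1.71 and -1.80 without the other array of each population, again with no call. By contrast 2 members, miR-342-3p and miR-342-5p, were above 0, against 5 below, and neither of the 2 was called. The difference of miR-342-3p was 0.25 ± 0.286.

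No call was made among the 7 tested PDC miRNAs, whose median difference was 0.00. This list was taken from earlier results of these data, so high values and detection in PDC follow from how it was chosen. Its summed relative signal was 1.08 and 1.09 in CD4+ DC, 1.06 and 1.66 in CD4-CD8- DC, and 2.67 and 3.48 in PDC. Of the 7, 6 were detected on each of the 4 arrays, and miR-592 was detected on both PDC arrays and on no other. Members of the list did not move one way, with 3 below 0 and 3 above. Besides miR-150, they included miR-128 (0.20 ± 0.265), miR-362-3p (0.22 ± 0.281) and miR-151-5p (0.66 ± 0.229), none of them called. For miR-181a and miR-181c, PDC had the highest mean of the 8 populations. The mean level of miR-181a was -1.71 in CD4+ DC, -1.10 in CD4-CD8- DC and 0.72 in PDC. The part of PDC or lymphocytes among the CD4-CD8- cells in these differences was not tested. In these sorted bulk samples, a change in the number of cells that carry a miRNA and a change in its amount per cell cannot be told apart.

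The miR-17 clusters, known to support proliferation and survival of lymphocytes and progenitors, contributed 1 call, miR-92a. Its level was 0.41 and 0.86 in CD4+ DC and 1.15 and 1.22 in CD4-CD8- DC, a difference of -0.55 ± 0.113 (limma adjusted p = 0.0315). CD4+ DC had the lowest mean of the 8 populations, 0.63, below 1.18 in CD4-CD8- DC and 0.97 in CD8+ DC, and the 3 progenitors lay between 2.15 and 2.66. All 10 tested members had a difference below 0, compared with 81 of all 175 miRNAs, and the median was -0.38. On both designs 8 of the 10 were below 0, compared with 48 of all 175. The distances between these sequences were not measured, so the 10 differences may not be separate. With unscaled signals 7 of the 10 were below 0 and miR-19b, miR-25 and miR-106b above it, and miR-106b was also above 0 when arrays were scaled over all miRNAs or quantile normalized. The member of next smallest p was miR-18a, at -4.14 and -4.01 in CD4+ DC and -3.27 and -3.43 in CD4-CD8- DC, which was not called (-0.72 ± 0.186, limma adjusted p = 0.0590). The differences of miR-20a (-0.39 ± 0.122), miR-20b (-0.38 ± 0.133), miR-93 (-0.39 ± 0.161), miR-19a (-0.43 ± 0.210), miR-19b (-0.31 ± 0.215), miR-17 (-0.29 ± 0.167), miR-25 (-0.25 ± 0.126) and miR-106b (-0.03 ± 0.134) did not pass either. The other strand of the miR-17 hairpin, miR-17*, differed by -0.45 ± 0.145 and also failed the threshold.

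Among the miRNAs detected on all 4 arrays, the difference furthest below 0 was that of miR-155, which activated macrophages, dendritic cells and lymphocytes are known to induce. It was at -2.42 and -1.91 in CD4+ DC and at -0.85 and -0.76 in CD4-CD8- DC. The populations did not overlap and were apart on both designs, by -1.57 on design 1 and -1.15 on design 2. The fitted difference of -1.36 ± 0.363, with an unadjusted 95% interval of -2.19 to -0.53, was nevertheless not called (limma adjusted p = 0.0677). It was called when the test was limited to the 131 miRNAs detected on both arrays of either population (limma adjusted p = 0.0361). CD4-CD8- DC had the highest mean of the 8 populations for miR-155, -0.81 against -2.17 in CD4+ DC. For miR-150 the means were -1.96 in CD4+ DC, -0.73 in CD4-CD8- DC and -0.83 in PDC. The PDC arrays, at -1.11 and -0.55, lay between the CD4-CD8- DC arrays for miR-150, so the order of these populations is within their spread.

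The other activation miRNAs were not called. These included miR-146a, a repressor of the adaptor TRAF6 in Toll-like receptor signalling, at 1.15 on both CD4+ DC arrays and at 0.69 and 0.56 in CD4-CD8- DC. The populations did not overlap, but the difference of 0.53 ± 0.309 had a limma adjusted p of 0.440. Its relative miR-146b differed by 0.23 ± 0.165. Of the 4 tested members of that list, 2 were below 0 and 2 above. CD4+ DC had the highest mean of the 8 populations for miR-146a (1.15, against 0.62 in CD4-CD8- DC), for miR-151-5p (-1.23, against -1.89) and for miR-29a (1.84, against 1.47). None of these differences was called, so the ranks are a description. In CD8+ DC the means were 0.35 for miR-146a, -2.04 for miR-151-5p and 1.70 for miR-29a.

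**Figure D3:**
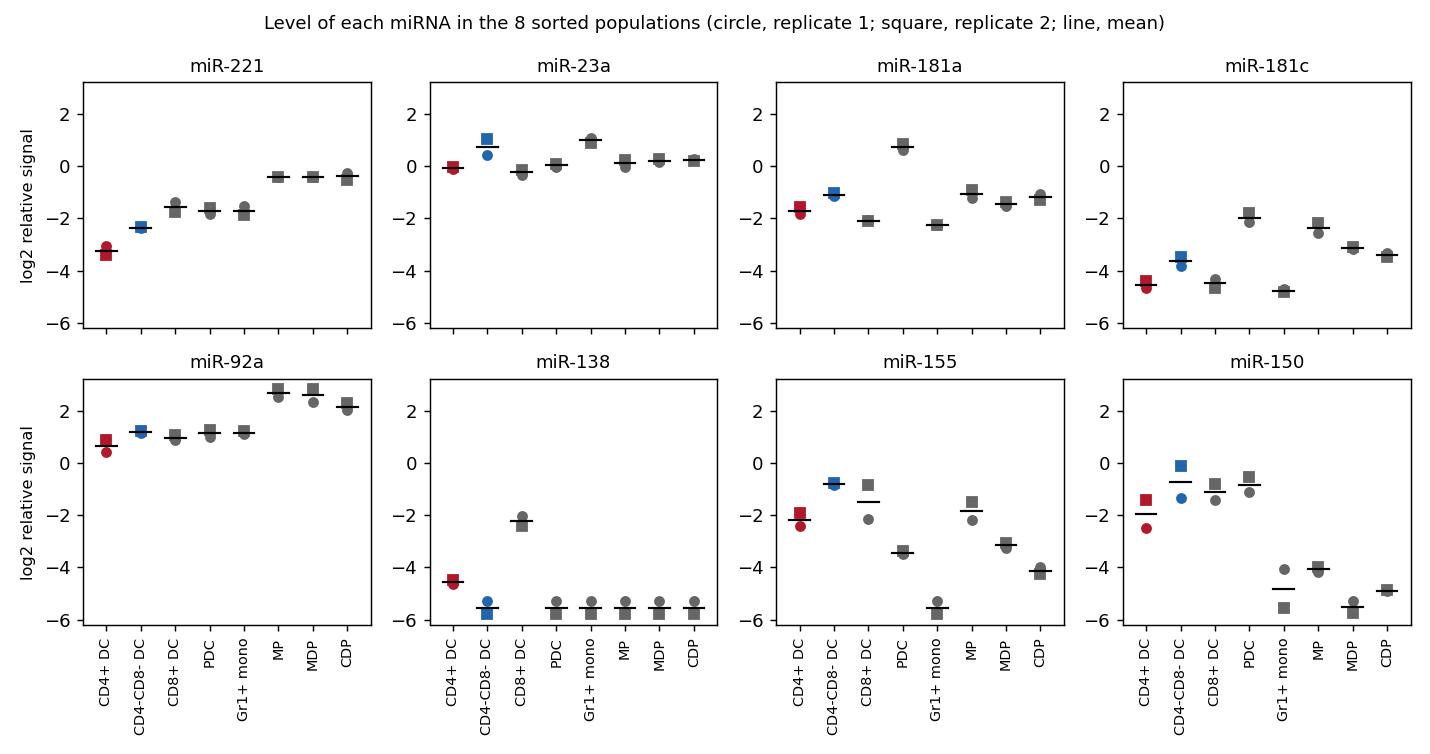
Log2 relative signal of 8 miRNAs in the 8 sorted populations, with CD4+ DC first (red), CD4-CD8- DC second (blue) and the other populations in grey. Circles are replicate 1, squares are replicate 2 and lines are means of 2 arrays. CD4+ DC lie lowest for miR-221 and miR-92a, CD4-CD8- DC have the highest mean for miR-155, CD4-CD8- DC and PDC overlap for miR-150, PDC lie highest for miR-181a and miR-181c, and CD8+ DC highest for miR-138.

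The miR-29 family, known to repress collagens and DNA methyltransferases, had 3 members above 0 on both designs and none called. Of all 175 tested, 43 were above 0 on both designs. The level of miR-29a was 1.94 and 1.75 in CD4+ DC and 1.47 and 1.47 in CD4-CD8- DC, a difference of 0.37 ± 0.124 (limma adjusted p = 0.128). For miR-29b the difference was 0.59 ± 0.226 and for miR-29c 0.26 ± 0.177. The populations were apart for miR-29a and overlapped for miR-29b. All 3 stayed above 0 under each scaling.

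Several miRNAs near the threshold belong to no group above. The level of miR-1224 was 0.15 and 0.16 in CD4+ DC and -0.62 and -0.26 in CD4-CD8- DC, a difference of 0.60 ± 0.143 (limma adjusted p = 0.0532). The epithelial miR-200b was at -4.64 and -4.50 in CD4+ DC and -4.92 and -5.66 in CD4-CD8- DC (0.72 ± 0.181, limma adjusted p = 0.0555). It was called when signals were left unscaled, when the test was limited to the 131 miRNAs above, and when either replicate 1 array was left out. Its family member miR-200c differed by 0.14 ± 0.208. Not above background in CD4-CD8- DC was miR-101a, at least 1.28-fold higher in CD4+ DC (0.70 ± 0.202, limma adjusted p = 0.0871, not called). Its difference was 0.00 with normexp and 0.14 with the brightest probe. The difference of miR-130b was -0.49 ± 0.143 (limma adjusted p = 0.0871). Of the 175 tested miRNAs, 7 were detected on both CD4+ DC arrays and on neither CD4-CD8- DC array, miR-138 and miR-101a among them. The reverse held for 0. The CD4+ DC arrays were also the brighter ones and detected more miRNAs, 131 and 163 against 124 and 147. The part of brightness in these counts was not tested.

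The let-7 family, which promotes differentiation and represses cell cycle genes, had 6 of 9 members below 0 and 3 above, a median of -0.05 and no call. The difference was -0.38 ± 0.104 for let-7b (limma adjusted p = 0.0720), which was called at -0.50 without CD4-CD8- DC replicate 1, and -0.37 ± 0.103 for let-7c (limma adjusted p = 0.0819). By contrast let-7g was at 0.16 ± 0.091 and let-7i at -0.16 ± 0.108, so the family had no common direction, and with unscaled signals 8 of the 9 were above 0. Nor was any call made among the miR-15 and miR-16 family (miR-15b -0.24 ± 0.112, miR-15a 0.17 ± 0.108 and miR-16 0.07 ± 0.105), the miR-30 family (miR-30d -0.20 ± 0.180), or the miR-148 family (miR-148a -0.39 ± 0.139). The haematopoietic miR-142-3p and miR-142-5p differed by 0.29 ± 0.187 and 0.35 ± 0.175, and were not called.

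Myeloid and non-lymphoid marker lists gave no call. Among the 5 myeloid miRNAs, miR-223, the best known regulator of granulocyte development, was at 2.27 and 2.24 in CD4+ DC and at 2.53 and 2.60 in CD4-CD8- DC (-0.31 ± 0.195). The difference was 0.43 ± 0.216 for miR-22, 0.03 ± 0.382 for miR-21 and -0.85 ± 0.393 for miR-139-5p, which was detected on 1 of 2 arrays of each population. Single CD4-CD8- DC arrays moved 2 of these values: without replicate 1, miR-139-5p was called lower at -1.65 and miR-22 was at 0.054, and without replicate 2 they were at -0.054 and 0.81, neither called. Erythroid miRNAs varied between pools: miR-451 was at -0.29 and -1.83 in CD4+ DC and at -2.25 and -2.65 in CD4-CD8- DC, a difference of 1.39 ± 1.08 (limma adjusted p = 0.596). It was the only erythroid member detected of 3, and the list's summed relative signal was 0.843 and 0.296 in CD4+ DC and 0.211 and 0.171 in CD4-CD8- DC. The part of residual red cells in the differences between the populations was not tested. Of the 13 stem and early progenitor miRNAs, 4 and 5 were detected in CD4+ DC and 4 and 4 in CD4-CD8- DC, and miR-126-3p, an endothelial and stem cell miRNA, was not above background on any of the 4 arrays.

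**Figure D4:**
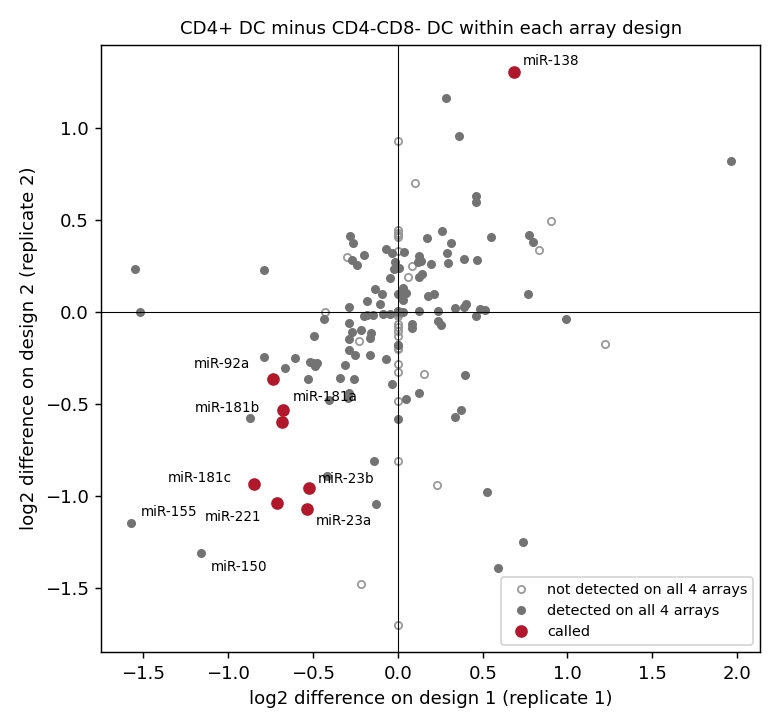
Log2 difference of CD4+ DC minus CD4-CD8- DC on design 1 (horizontal axis) and design 2 (vertical axis) for the 175 tested miRNAs, each point 1 miRNA. Filled grey points were detected on all 4 arrays, open points were not, and red points were called. The called miRNAs lie in the lower left quadrant except miR-138 in the upper right, and miR-155 and miR-150 lie further to the lower left than any called miRNA.

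The 2 populations were close to each other among the 8. The same fit called 8 of 175 miRNAs (4.57%) between CD4+ DC and CD4-CD8- DC, 54 (30.9%) between CD4+ DC and CD8+ DC, and 51 (29.1%) between CD8+ DC and CD4-CD8- DC. The 3 contrasts share arrays, and these counts are a description. Across the 175 miRNAs, with the mean over each design subtracted, CD4+ DC replicate 1 correlated with CD4+ DC replicate 2 at r = 0.868 and with CD4-CD8- DC replicate 2 at r = 0.763. CD4-CD8- DC replicate 1 correlated with CD4+ DC replicate 2 at r = 0.807, the same as with CD4-CD8- DC replicate 2 (r = 0.807), so it was not closer to its own population than to the other. These r values are across miRNAs, which are not independent replicates.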

How the data were processed

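Processed signal intensities had been extracted and background-subtracted with Agilent Feature Extraction, version 10.7.3.1 per the file headers and 9.1 per the submitters' processing notes. These deposited intensity values are linear and not scaled between arrays. The deposited series tables hold the same processed signal intensities: 109719 of 109720 spots of design 1 and 117077 of 117080 of design 2 were equal at 3 significant digits.

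Spots marked as outliers were left out, spots were averaged per probe and probes per miRNA. Detection on an array required, for any probe of a miRNA, a share of 0.5 or more of its spots well above background. Signals were scaled to each array's 75th percentile over 88 miRNAs (those detected on every array), raised to a floor (-5.30 on design 1 and -5.78 on design 2, the median over arrays of the 5th percentile of detected values) and log2 transformed, so values at the floor have no order. All 604 miRNAs on both designs had identical probes. A fold against a population with no detection is a lower bound, with its signal set to its own value or to the lowest detected signal, whichever was higher.

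The 175 miRNAs detected on both arrays of any population were fitted on all 16 arrays with limma 3.58.1 in R 4.3.3, with the array design as a block, and adjusted by Benjamini-Hochberg. The replicate number marks the design, slide and scan. Deviations of same-numbered arrays from population means correlated in all 28 pairs of populations (r = 0.647 between CD4+ DC and CD4-CD8- DC). The floor differs by design, so miRNAs at the floor on both arrays deviate alike in every such population. Their part in r was not tested. In 20 simulated sets with 60 of 175 miRNAs changed between these populations, 62.5% of log2 changes of 0.6, 86.5% of 1 and 97.2% of 2 were called, and 3.05% of calls were false. The simulated errors were independent, so effects shared across a pool or array and differences in scaling were left out. With 60 changed miRNAs, against 8 called in the data, the adjusted threshold was also easier to pass. These shares therefore do not measure the power or the false calls of the real comparison.

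Named miRNAs were those called with 1 sign on both designs, then those of smallest p up to 20, up to 4 of smallest p in each of 19 lists, and 9 standing names. Further members of the miR-23, miR-17, PDC and lymphocyte lists, and the 3 miRNAs on design 2 alone, were chosen for naming with their values known. The comparison and the lists were chosen with earlier results of these data known. RefSeq mature sequences were matched through the array's probe sequence and then by name, for 127 of the 175 miRNAs. Alternatives changed the scaling, background correction, filter, floor, probe summary, samples and block, or left out 1 array.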

Additional observations from a re-analysis of the deposited data

Results flagged for a closer look

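Some miRNAs lie on 1 design alone and so had 1 array per population and no replicate. On design 2, the mouse miRNAs furthest apart among those detected were miR-1927, lower in CD4+ DC than in CD4-CD8- DC by -1.85 on the log2 scale, miR-3099, lower by -1.65, and miR-3473, higher by 1.06. Of the 92 mouse miRNAs on design 2 alone, 30 were detected on either array, 30 in CD4+ DC and 28 in CD4-CD8- DC. Of the 7 on design 1 alone, 1 was detected, in CD4+ DC. The 39 viral miRNAs of design 1 included 4 detected on either array, 4 in CD4+ DC and 3 in CD4-CD8- DC.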

How the results depend on the processing

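All 8 called miRNAs kept their direction under every alternative that gave them a value, but the number of calls (1 higher and 7 lower) did not hold. No miRNA was called when arrays were scaled over all miRNAs (0, with 20 at an unadjusted limma p under 0.05), with normexp (0, with 7), with no filter (0 of 604, with 32), without the replicate block (0, with 21), with only the 4 arrays (0, with 25) or with only the 6 spleen DC arrays (0, with 35). Quantile normalization called 1 (1 higher and 0 lower), the filter on either population 13 (3 higher and 10 lower), and no floor 11 (2 higher and 9 lower). Leaving signals unscaled, an alternative chosen after seeing the data, called 3 (3 higher and 0 lower). Only miRNAs detected on all 16 arrays gave 10. The brightest probe gave 6, and the values of the series tables gave 8 again. Leaving out 1 array gave 0 to 11 calls, 0 to 2 higher and 0 to 9 lower. The lone remaining array was then assumed to vary like the other populations, and the cause of the lost calls was not tested.

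Of the miRNAs not called, some changed sign. Unscaled, these were let-7c (0.0026), let-7i (0.21), miR-15b (0.13), miR-30d (0.17), miR-223 (0.056), miR-19b (0.054), miR-25 (0.12) and miR-106b (0.34). For miR-106b the sign also changed when scaled over all miRNAs (0.015) and with quantile normalization (0.15). With normexp they were miR-146b (-0.062), miR-362-3p (-0.026), miR-128 (-0.046) and miR-200c (-0.022). With 1 array left out, the range included 0 for miR-34a (-0.19 to 0.19), miR-200c (-0.22 to 0.51), miR-21 (-0.34 to 0.39), miR-126-3p (-0.17 to 0.11), miR-342-3p (-0.13 to 0.64) and miR-106b (-0.16 to 0.10). The cause was not tested. Signals near background limit what can be said of miRNAs at or close to the floor, miR-138 among them.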
